A study of Mus musculus with 16 samples.

Results

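The comparison described here asked whether the striatum of GS mice and of WT mice responded alike 6 h after an injury. It is the genotype by stage interaction, (GS 6 h minus GS intact) minus (WT 6 h minus WT intact), and its libraries were taken by their labels. It used 8 of the 16 libraries of the series, 2 in each of 4 groups, and 18626 of the 19457 genes in the count table could be tested. The mice labelled GS were taken to carry LRRK2 with the G2019S substitution given in the title of the series, and the WT mice are wild type. The 6 h groups were collected 6 h after 0.8 µl of 500 mM ATP had been injected into the striatum on 1 side, and the intact groups had no injection according to the labels. The other 8 libraries came from 3 d and 15 d. All animals of the injected groups were anaesthetised with tribromoethanol for the injection, so the needle, the volume, the anaesthetic and the ATP cannot be told apart in either response. The labels give no age or sex, do not say whether the G2019S change was knocked in or carried by a transgene, and call the replicates biological without saying whether a library was 1 animal or a pool, so p-values measure the spread between these libraries.

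The striatum is made mostly of GABAergic projection neurons, which fall into a direct pathway that carries the dopamine receptor Drd1 and an indirect pathway that carries Drd2 and the adenosine receptor Adora2a. ATP released from damaged cells acts on P2 receptors of microglia and astrocytes, is broken down to adenosine by ectoenzymes, and starts an early programme of stress, immediate early and inflammatory genes. LRRK2 is a large kinase that phosphorylates Rab GTPases, G2019S raises its kinase activity, and the gene is expressed in projection neurons as well as in immune cells. In bulk tissue, fewer cells of a type and less RNA per cell cannot be told apart.

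Total counts ran from 53895500 to 61734000 per library, and TMM factors from 0.961 to 1.03. Levels are given in CPM, the count of a gene scaled to the size of its library after TMM normalisation and not by gene length, and differences as log2 values ± a standard error. The defining genes of striatal projection neurons were abundant everywhere, with Ppp1r1b at 2158 and 2106 CPM in GS 6 h, 2206 and 2385 CPM in GS intact, 2315 and 2293 CPM in WT 6 h and 1923 and 2014 CPM in WT intact striatum. Lrrk2 itself had 133 and 134 CPM in GS 6 h, 166 and 214 CPM in GS intact, 133 and 134 CPM in WT 6 h and 133 and 160.3 CPM in WT intact striatum. A codon changed in place leaves the count of a transcript as it is. The labels do not say whether a transgene was used instead, so these levels do not check the genotype. In Lrrk2 the GS libraries fell by 0.51 ± 0.11 at 6 h (edgeR adjusted p = 0.00859), the WT difference was -0.13 ± 0.11 (edgeR adjusted p = 0.49), and the interaction of -0.38 ± 0.15 did not pass (edgeR adjusted p = 0.315). Some libraries stood apart from their partners, as the plot of marker sums shows. The summed level of 11 measured cortical markers was 284 CPM in WT 6 h replicate 2 and 340 CPM in WT intact replicate 1, against 173 to 247 CPM in the other 6 libraries. The 14 choroid plexus markers summed to 594 CPM in GS 6 h replicate 2 and 797 CPM in GS intact replicate 1, against 272 to 362 CPM in the others. The 4 Y-linked genes Ddx3y, Eif2s3y, Kdm5d and Uty summed to 46.8 CPM in GS 6 h replicate 2 and to 121 to 185 CPM in the other 7 libraries. The counts, list medians and named interactions below were therefore also computed without the libraries high in cortical markers and without those high in choroid plexus markers, and changes are stated where they occur.

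**Figure D1:**
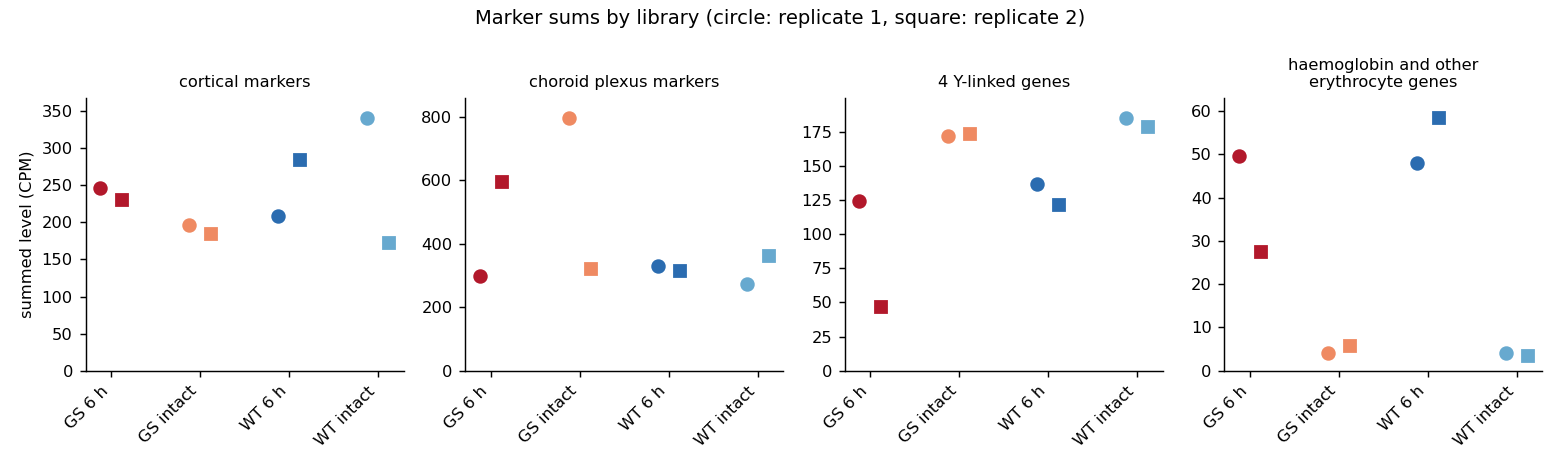
Summed level in CPM of 4 marker groups in each of the 8 libraries, by group, with replicate 1 as a circle and replicate 2 as a square. GS 6 h replicate 2 is lowest in the Y-linked sum at 46.8 CPM, GS intact replicate 1 is highest in the choroid plexus sum at 797 CPM and WT intact replicate 1 is highest in the cortical sum at 340 CPM.

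Both genotypes responded strongly at 6 h, and mostly in the same direction. In GS, 3788 genes changed (20.3% of the genes tested, edgeR adjusted p under 0.05), 2008 higher and 1780 lower. In WT, 1808 genes changed (9.71%), 1126 higher and 682 lower. The WT count depends on the libraries. It was 43 without WT 6 h replicate 2 and WT intact replicate 1, the libraries high in cortical markers. Without a single library it was 780 (WT 6 h replicate 1), 321 (WT 6 h replicate 2), 660 (WT intact replicate 1) and 1043 (WT intact replicate 2). The GS count was 1317 without GS 6 h replicate 2 and GS intact replicate 1, the libraries high in choroid plexus markers, and 1759, 1959 and 2166 without GS 6 h replicate 1, GS 6 h replicate 2 and GS intact replicate 2. The difference between the counts of the 2 genotypes was not tested. Of the 1117 genes that changed in both genotypes, which are 29.5% of the GS calls and 61.8% of the WT calls, 1109 moved in the same direction and 8 in opposite directions. Across all genes the 2 responses correlated at a Pearson r of 0.542 and a Spearman rho of 0.484, a description across genes, which are not independent replicates.

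The largest rises shared by the genotypes included blood and innate immune genes. Averaged over genotypes, the response passed in 5213 genes (28%), 2798 higher (15%) and 2415 lower (13%). Among genes at 1 CPM or more the highest averages were those of C5ar1, the receptor of complement fragment C5a, Hcar2, a receptor for hydroxy acids on myeloid cells, and the alpha globin genes Hba-a1 and Hba-a2 and the beta globin genes Hbb-bs and Hbb-bt, whose transcripts mark red blood cells. C5ar1 had 4.2 and 2.07 CPM in GS 6 h striatum and 0.439 and 0.489 CPM in GS intact striatum, and 2.99 and 3.82 CPM in WT 6 h striatum and 0.193 and 0.0924 CPM in WT intact striatum. It rose by 2.75 ± 0.37 in GS and 4.55 ± 0.45 in WT, and the interaction of -1.79 ± 0.62 did not pass (edgeR adjusted p = 0.241). The 4 globin genes, 2 pairs of near-identical copies whose reads can be shared, rose in both genotypes with a median of 2.99 in GS and 3.86 in WT. Their interactions ran from -1.24 to -0.54 and none passed, and the erythrocyte sum was 27.3 CPM in GS 6 h replicate 2 against 47.9 to 58.3 CPM in the other 6 h libraries. Among the genes that fell furthest on average were Arc and Egr2, activity-regulated neuronal genes, Edn3, an endothelin, and Mmp23, a matrix metallopeptidase. Arc fell by 1.44 ± 0.25 in GS and by 1.51 ± 0.25 in WT, an interaction of 0.08 ± 0.35.

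The average response does not use the difference between genotypes, so genes chosen by it can be asked which genotype responded more, as long as both genotypes vary alike. Of the 5213 genes, 66% had the larger response in GS, with a median excess of 0.08 on the log2 scale. The share was 53.5% among the 13413 genes whose average response did not pass. Among the 336 genes that were higher by 2-fold or more on average, 75.9% responded more in GS, with a median response of 1.62 in GS and 1.18 in WT. Among the 137 that were lower by 2-fold or more, the share was 60.6% and the medians were -1.42 in GS and -1.11 in WT. Without any 1 library, with the genes of the average response called anew each time, the share lay between 58.6 and 70.4%. Leaving out 1 library makes the groups unequal in size, so the average is then not free of the difference between genotypes. That range is therefore no clean check of the share. All these shares describe the genes and carry no test. In the plot of the 2 responses these genes lie more often farther from 0 in the vertical than in the horizontal direction.

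**Figure D2:**
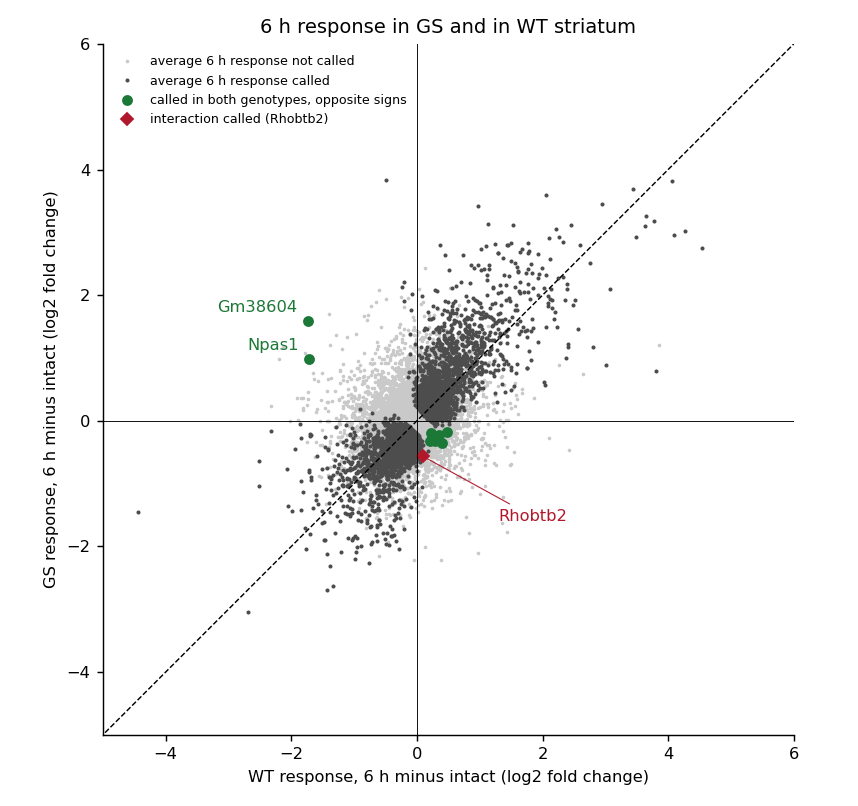
Response at 6 h in GS (vertical axis) against the response in WT (horizontal axis), both as log2 fold changes of 6 h over intact, 1 point for each of 18626 genes. The dashed line marks equal responses, dark points are the 5213 genes called in the average response, green points are the 8 genes called in both genotypes with opposite signs, and the red diamond is Rhobtb2, the gene called in the interaction.

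The direct test of the difference between the responses called 1 gene of 18626 (0.00537%) with edgeR's quasi-likelihood test at an adjusted p under 0.05. At an unadjusted p under 0.05 there were 2530 genes (13.6%), 1112 with a higher response in GS (5.97%) and 1418 with a lower one (7.61%), and 146 genes had an adjusted p under 0.1, 37 higher and 109 lower. DESeq2 called 470 genes on the same counts, 116 higher and 354 lower. The count was 216 without GS intact replicate 1, 21 without WT intact replicate 2, and 0 without WT intact replicate 1, without GS intact replicate 2 or without WT 6 h replicate 1. The interaction equals the GS minus WT difference at 6 h less that in intact striatum, so genes picked by it tend to differ in opposite directions at the 2 stages. As a description, the 1418 genes with a lower response in GS at an unadjusted p under 0.05 had a median GS minus WT difference of -0.13 at 6 h and 0.18 in intact striatum, and the 1112 with a higher response had medians of 0.21 at 6 h and -0.27 in intact striatum.

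The gene called was Rhobtb2, at chr14:69784990-69824847 (mm10), an adaptor of cullin 3 ubiquitin ligases. It had 159.6 and 164 CPM in GS 6 h, 235 and 245 CPM in GS intact, 201 and 192 CPM in WT 6 h and 183 and 184 CPM in WT intact striatum. The groups did not overlap: GS intact was the highest, GS 6 h the lowest, and the WT groups lay between them. Rhobtb2 fell by 0.57 ± 0.05 in GS (edgeR adjusted p = 0.00013) and differed by 0.10 ± 0.05 in WT (edgeR adjusted p = 0.242). The interaction was -0.67 ± 0.07 (edgeR adjusted p = 0.0298). It lay between -0.70 and -0.63 without any 1 library, and did not pass without GS 6 h replicate 1, GS 6 h replicate 2, GS intact replicate 2, WT 6 h replicate 1 or WT intact replicate 1. DESeq2 gave it an adjusted p of 6.57e-12. In intact striatum Rhobtb2 was higher in GS by 0.39 ± 0.05 (edgeR adjusted p = 0.041), and at 6 h the GS minus WT difference was -0.28 ± 0.05 (edgeR adjusted p = 0.105).

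**Figure D3:**
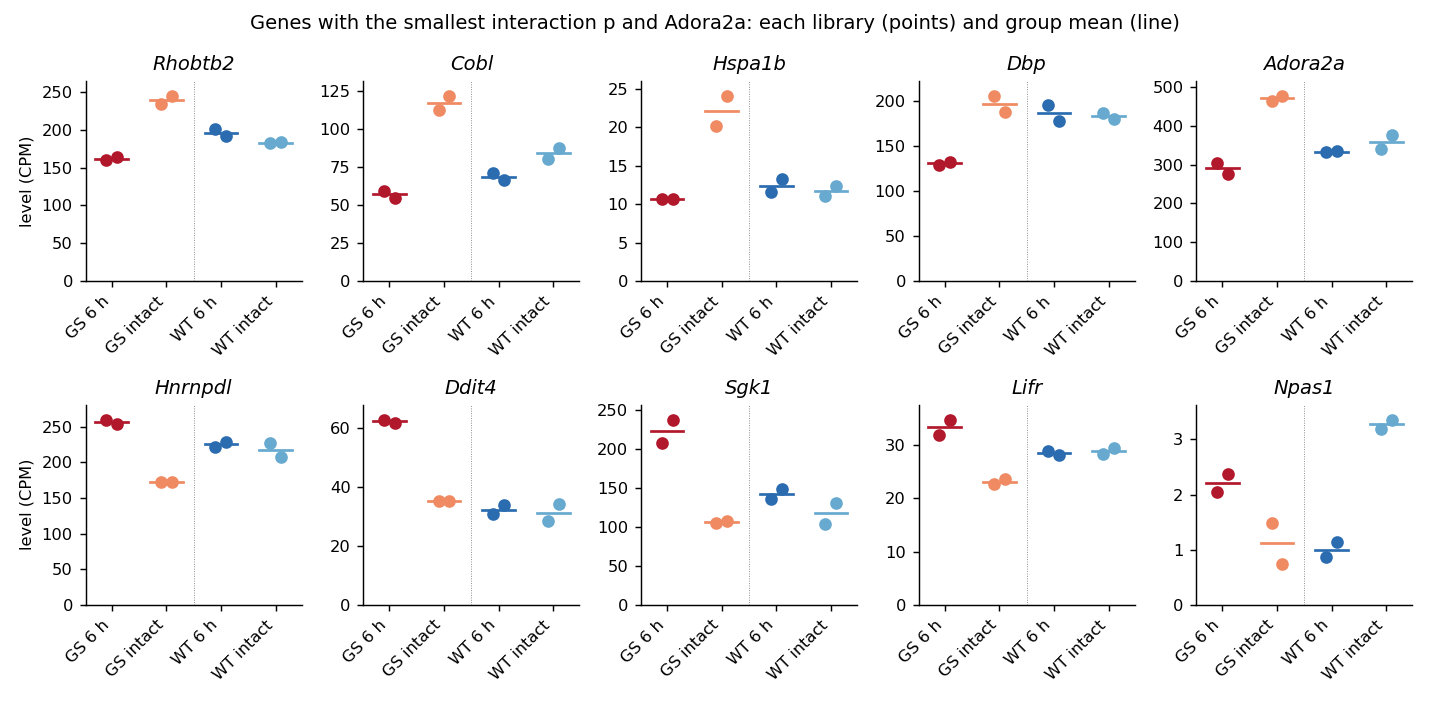
Level in CPM of 10 genes in each of the 8 libraries (points) with the mean of each group (line), all axes starting at 0. In the top row GS intact has the highest mean, as for Rhobtb2 at 235 and 245 CPM, although the Dbp libraries of GS intact overlap those of WT. In the bottom row Hnrnpdl, Ddit4, Sgk1 and Lifr have both GS 6 h libraries on top, and Npas1 has WT intact on top.

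Of the 8 genes named with a lower response in GS, the 7 after Rhobtb2 did not pass, with adjusted p-values at or above 0.0601. Cobl, an actin nucleator of neurons, had 59.3 and 54.8 CPM in GS 6 h, 113 and 122 CPM in GS intact, 71.2 and 66.4 CPM in WT 6 h and 80.2 and 87.9 CPM in WT intact striatum, with no overlap between the groups. It fell by 1.04 ± 0.07 in GS (edgeR adjusted p = 4.57e-05) and by 0.29 ± 0.07 in WT (edgeR adjusted p = 0.0285), an interaction of -0.75 ± 0.10 (edgeR adjusted p = 0.0605). Chrm1, the muscarinic M1 acetylcholine receptor of projection neurons, had 121 and 123 CPM in GS 6 h, 156 and 164 CPM in GS intact, 142 and 149 CPM in WT 6 h and 135 and 136 CPM in WT intact striatum. GS 6 h was the lowest and GS intact the highest of its 4 groups. It fell by 0.39 ± 0.05 in GS (edgeR adjusted p = 0.000711) and differed by 0.10 ± 0.05 in WT (edgeR adjusted p = 0.243), and the interaction was -0.49 ± 0.07 (edgeR adjusted p = 0.0605). Fam163b and Ehbp1l1 had interactions of -0.67 ± 0.08 and -0.59 ± 0.08, and Hspa1b and Dbp are described with their groups below. Ehbp1l1, Cobl and Dbp overlap other genes on the annotation, and reads of overlapping genes cannot be told apart when the use of strand is not given.

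Of the 8 genes named with a higher response in GS none passed, and their adjusted p-values ran from 0.0605 to 0.0811. Ddit4, a stress-induced inhibitor of the mTORC1 growth pathway, had 63 and 61.8 CPM in GS 6 h, 35.3 and 35.4 CPM in GS intact, 30.9 and 33.8 CPM in WT 6 h and 28.5 and 34.2 CPM in WT intact striatum. Both GS 6 h libraries stood apart and the other 6 lay at or below 35.4 CPM. Ddit4 rose by 0.82 ± 0.08 in GS (edgeR adjusted p = 0.000228), differed by 0.05 ± 0.08 in WT (edgeR adjusted p = 0.783), and had an interaction of 0.77 ± 0.12 (edgeR adjusted p = 0.061). It was 1 of 4 genes called between genotypes at 6 h (0.0215%), where it was higher in GS, by 0.95 ± 0.08 (edgeR adjusted p = 0.00235). Hnrnpdl, an RNA-binding protein of the hnRNP family, had 260.4 and 255 CPM in GS 6 h, 173 and 172 CPM in GS intact, 222 and 229 CPM in WT 6 h and 227 and 208 CPM in WT intact striatum. Its GS intact libraries were the lowest and its GS 6 h libraries the highest, it rose by 0.58 ± 0.05 in GS (edgeR adjusted p = 0.000154), and its interaction was 0.52 ± 0.08 (edgeR adjusted p = 0.0605). Lifr, a receptor subunit for leukaemia inhibitory factor and related cytokines, had 32 and 34.8 CPM in GS 6 h, 22.7 and 23.6 CPM in GS intact, 28.9 and 28.1 CPM in WT 6 h and 28.3 and 29.5 CPM in WT intact striatum. The same order of groups held, with both WT groups in between, and the interaction was 0.55 ± 0.10 (edgeR adjusted p = 0.0811). The predicted genes Gm34996 and Gm34982 had interactions of 0.81 ± 0.12 and 0.86 ± 0.14. Gm34996 overlaps Erc2, so its reads are uncertain. Col16a1, a collagen, had an interaction of 0.78 ± 0.13. It differed by 0.25 ± 0.09 in GS (edgeR adjusted p = 0.0685) and fell by 0.53 ± 0.09 in WT (edgeR adjusted p = 0.00629). Hnrnpdl, Npas1, Col16a1 and Sgk1 also overlap other annotated genes. Sgk1 is described with the glucocorticoid genes.

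The 8 genes that changed in both genotypes in opposite directions included Gm38604, Npas1, Synpo2, Serpina9, Ehbp1l1, Cnst and Fam163b. Npas1, a basic helix-loop-helix transcription factor of forebrain neurons, had 2.05 and 2.37 CPM in GS 6 h, 1.49 and 0.741 CPM in GS intact, 0.858 and 1.14 CPM in WT 6 h and 3.19 and 3.36 CPM in WT intact striatum. GS 6 h lay above GS intact and WT 6 h lay below WT intact, and neither pair overlapped. It rose by 0.99 ± 0.30 in GS (edgeR adjusted p = 0.0409) and fell by 1.71 ± 0.30 in WT (edgeR adjusted p = 0.00777), an interaction of 2.70 ± 0.43 (edgeR adjusted p = 0.061). Gm38604, a predicted gene at under 1 CPM, likewise rose in GS and fell in WT. The others named here fell in GS and rose in WT. Synpo2, an actin-binding protein, fell by 0.36 ± 0.11 in GS (edgeR adjusted p = 0.0384) and rose by 0.41 ± 0.11 in WT (edgeR adjusted p = 0.0416). In Serpina9, Cnst, Ehbp1l1 and Fam163b the sizes ran from -0.33 to -0.19 in GS and from 0.22 to 0.48 in WT.

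Genes of the striatal projection neurons mostly had an interaction below 0. Of 27 measured genes, 25 had an interaction below 0, and 19 of 27 were lower and 1 higher at an unadjusted p under 0.05, against 7.61% and 5.97% of all genes. None passed after adjustment with edgeR. With DESeq2 15 of 27 passed, all lower, where DESeq2 called 354 of all 18626 genes lower and 116 higher. The median interaction was -0.31, against 0.00 over all genes. In GS 14 of 27 fell and 1 rose at 6 h, where 9.56% of all genes fell and 10.8% rose, and in WT none fell and 2 rose, where 3.66% fell and 6.05% rose. The 2 that rose in WT were Ppp1r1b, the dopamine signalling phosphoprotein DARPP-32, and Foxp2, a transcription factor. In 13 of 27 genes both GS intact libraries lay above the other 6 libraries (10.7% of all genes), and in 6 of 27 both GS 6 h libraries lay below the other 6 (8.78% of all genes). The median GS minus WT difference of the list was -0.10 at 6 h and 0.18 in intact striatum.

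**Figure D4:**
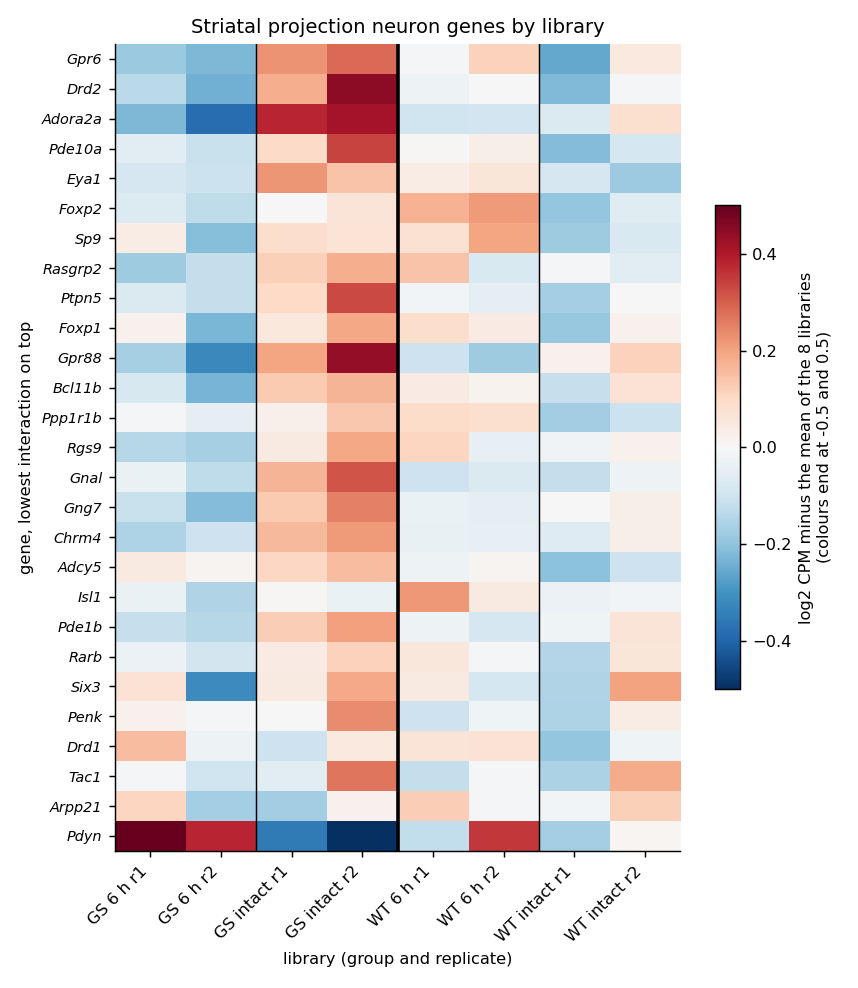
Striatal projection neuron genes in each library as log2 CPM minus the mean of the 8 libraries, ordered by interaction with the lowest on top. For most genes above Isl1 the GS intact columns are red (above the mean) and the GS 6 h columns blue (below it), and Pdyn at the bottom shows the opposite.

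The 3 lowest interactions of the list were those of Gpr6, Drd2 and Adora2a, all genes of the indirect pathway. Adora2a, the adenosine A2A receptor, had 305 and 274 CPM in GS 6 h, 464 and 477 CPM in GS intact, 333 and 334 CPM in WT 6 h and 339.5 and 377 CPM in WT intact striatum. GS intact lay apart at the top, GS 6 h at the bottom, and the WT groups overlapped neither. Adora2a fell by 0.70 ± 0.07 in GS (edgeR adjusted p = 0.000152) and differed by -0.10 ± 0.06 in WT (edgeR adjusted p = 0.345), an interaction of -0.60 ± 0.09 (edgeR adjusted p = 0.061). Drd2, the dopamine D2 receptor, had 277 and 258 CPM in GS 6 h, 345 and 415 CPM in GS intact, 299 and 305 CPM in WT 6 h and 261 and 302 CPM in WT intact striatum. Its GS intact libraries were the highest, the other 3 groups lay close together, and its interaction was -0.61 ± 0.13 (edgeR adjusted p = 0.0965). Gpr6, an orphan receptor of indirect pathway neurons, had 76.7 and 74.7 CPM in GS 6 h, 102 and 106 CPM in GS intact, 86.7 and 94.4 CPM in WT 6 h and 73 and 90.3 CPM in WT intact striatum, and its interaction was -0.61 ± 0.12 (edgeR adjusted p = 0.0939). Penk, the enkephalin precursor of the same neurons, stood apart from them with an interaction of -0.11 ± 0.12 (edgeR adjusted p = 0.728).

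Genes of the direct pathway varied. Chrm4, the muscarinic M4 receptor, had an interaction of -0.29 ± 0.08 (edgeR adjusted p = 0.146), and Isl1, a transcription factor of these neurons, -0.23 ± 0.12 (edgeR adjusted p = 0.431). Drd1, the dopamine D1 receptor, had 307 and 271 CPM in GS 6 h, 257 and 285 CPM in GS intact, 289 and 290.0 CPM in WT 6 h and 241 and 272 CPM in WT intact striatum, with overlapping groups in GS and an interaction of -0.08 ± 0.11 (edgeR adjusted p = 0.798). Tac1, the substance P precursor, had an interaction of -0.08 ± 0.16 (edgeR adjusted p = 0.876). Pdyn, the prodynorphin gene, had 121 and 109.5 CPM in GS 6 h, 65.8 and 54.7 CPM in GS intact, 77.4 and 108 CPM in WT 6 h and 74.8 and 84.8 CPM in WT intact striatum. It was the 1 gene of the list that rose in GS, by 0.94 ± 0.14 (edgeR adjusted p = 0.00135), with both GS 6 h libraries above the other 6, and its interaction of 0.73 ± 0.19 did not pass (edgeR adjusted p = 0.151). Whether the 2 pathways differ from each other was not tested. Genes not assigned to a pathway here included Pde10a, a cyclic nucleotide phosphodiesterase, with an interaction of -0.47 ± 0.11, and Foxp2, with -0.45 ± 0.09. Eya1, likewise not assigned, had an interaction of -0.46 ± 0.11 (edgeR adjusted p = 0.126). Six3, a further unassigned gene, had -0.17 ± 0.18 (edgeR adjusted p = 0.738). How the 2 pathways compare therefore depends on which genes are assigned to them. The list kept a median between -0.38 and -0.24 without any 1 library. Without the libraries high in cortical markers the median was -0.29 and fewer of the genes were lower at an unadjusted p under 0.05. The summed level of the list was 18285 and 17233 CPM in GS 6 h, 19740 and 21944 CPM in GS intact, 18869 and 18585 CPM in WT 6 h, and 17386 and 18779 CPM in WT intact striatum. WT intact replicate 1, with the highest cortical sum, had the lower of the WT intact sums. When the score of cortical markers entered the fit the median was -0.31, and when that of choroid plexus markers entered it the median was -0.35.

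Chaperone genes of the heat shock response mostly had an interaction below 0. These genes are driven by heat shock factors when proteins misfold. Of 18 measured genes, 17 had an interaction below 0, 9 were lower (7.61% of all genes) and none higher at an unadjusted p under 0.05, and the median was -0.27. In GS 14 of 18 fell (9.56% of all genes) and none rose, and in WT 6 of 18 fell (3.66% of all genes) and none rose. In 14 of 18 genes both GS intact libraries were above the other 6 (10.7% of all genes). The median GS minus WT difference was 0.03 at 6 h and 0.34 in intact striatum. Hspa1b, an inducible HSP70 gene, had 10.6 and 10.6 CPM in GS 6 h, 20.1 and 24.1 CPM in GS intact, 11.5 and 13.3 CPM in WT 6 h and 11 and 12.4 CPM in WT intact striatum. The GS intact libraries were the highest by a wide margin and the other 6 lay between 10.6 and 13.3 CPM. Hspa1b fell by 1.06 ± 0.11 in GS (edgeR adjusted p = 0.000291) and differed by 0.08 ± 0.12 in WT (edgeR adjusted p = 0.7), an interaction of -1.14 ± 0.16 (edgeR adjusted p = 0.0605). Intact GS striatum was higher than intact WT striatum by 0.92 ± 0.11 (edgeR adjusted p = 0.041). Its copy Hspa1a had 5.9 and 6.33 CPM in GS 6 h, 13.7 and 16 CPM in GS intact, 5.41 and 8.29 CPM in WT 6 h and 6.51 and 7.35 CPM in WT intact striatum and an interaction of -1.26 ± 0.25 (edgeR adjusted p = 0.0938). Hspa8, the constitutive HSC70, had 755 and 755 CPM in GS 6 h, 1276 and 1475 CPM in GS intact, 754 and 755 CPM in WT 6 h and 935 and 1127 CPM in WT intact striatum, again highest in GS intact, and it fell in both genotypes, by 0.87 ± 0.09 in GS (edgeR adjusted p = 0.000223) and 0.45 ± 0.09 in WT (edgeR adjusted p = 0.0112). Serpinh1, the collagen chaperone HSP47, fell by 1.10 ± 0.12 in GS (edgeR adjusted p = 0.000366) and by 0.46 ± 0.12 in WT (edgeR adjusted p = 0.0435). The median of the list was -0.14 without the libraries high in cortical markers, and fewer genes were then lower at an unadjusted p under 0.05.

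The starts of 3 of these genes are shown because they carry the letters that heat shock factors bind and because Hspa1b and Hspa1a are near-identical. Each is the 250 bases before the annotated start on the strand of the gene, from RefSeq (GRCm38.p6, the mm10 assembly), with matches to GAANNTTC in capitals for Hspa1b and Hspa1a and matches to its longer form, GAA, 2 bases, TTC, 2 bases and GAA, in capitals for Hspe1, both strands searched. They lie at chr17:34959239-34959488 on the minus strand for Hspa1b, chr17:34972157-34972406 on the minus strand for Hspa1a and chr1:55087898-55088147 on the plus strand for Hspe1, a mitochondrial chaperonin that shares its promoter with Hspd1.
Hspa1b: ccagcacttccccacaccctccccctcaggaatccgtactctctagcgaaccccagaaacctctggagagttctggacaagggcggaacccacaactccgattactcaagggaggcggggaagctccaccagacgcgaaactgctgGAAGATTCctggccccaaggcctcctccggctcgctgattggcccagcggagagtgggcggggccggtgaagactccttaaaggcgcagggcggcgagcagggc
Hspa1a: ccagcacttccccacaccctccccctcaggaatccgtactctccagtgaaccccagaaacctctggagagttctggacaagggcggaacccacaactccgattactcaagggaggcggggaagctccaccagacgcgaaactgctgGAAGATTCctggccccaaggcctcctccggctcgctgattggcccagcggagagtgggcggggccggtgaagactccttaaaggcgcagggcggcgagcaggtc
Hspe1: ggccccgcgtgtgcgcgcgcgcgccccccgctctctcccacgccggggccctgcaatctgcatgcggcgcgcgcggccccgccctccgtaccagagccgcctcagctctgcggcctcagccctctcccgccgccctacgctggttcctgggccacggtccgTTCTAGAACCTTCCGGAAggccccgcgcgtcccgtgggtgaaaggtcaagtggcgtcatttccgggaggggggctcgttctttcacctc
The Hspa1b and Hspa1a stretches differ at 3 of 250 positions and are 98.8% identical, and reads of the 2 genes may likewise be shared. GAANNTTC occurred in 7 of the 14 heat shock genes that have an entry, and in 6.69% of all 32851 promoter windows. The longer motif occurred in 2 of 14, Hspd1 and Hspe1, and in 0.466% of all windows. A match is a description of letters and not a bound site. Hspe1 had 35.6 and 42.4 CPM in GS 6 h, 64.3 and 72 CPM in GS intact, 37.5 and 38.7 CPM in WT 6 h and 47.1 and 52.3 CPM in WT intact striatum, highest in GS intact, with an interaction of -0.42 ± 0.13 (edgeR adjusted p = 0.189).

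Genes of the circadian clock, a feedback loop of transcription factors that runs in most cells, also mostly had an interaction below 0. Of 17 measured genes, 16 had an interaction below 0, 7 were lower (7.61% of all genes) and none higher at an unadjusted p under 0.05, and the median was -0.22. In GS 4 rose and 5 fell (10.8% and 9.56% of all genes), and in WT 6 rose and 1 fell (6.05% and 3.66%). Dbp, a PAR domain factor whose transcript cycles with the clock, had 129 and 133 CPM in GS 6 h, 206 and 188 CPM in GS intact, 196 and 178 CPM in WT 6 h and 187 and 180.1 CPM in WT intact striatum. The GS 6 h libraries lay below the other 6, which overlapped. Dbp fell by 0.59 ± 0.06 in GS (edgeR adjusted p = 0.00028) and differed by 0.03 ± 0.06 in WT (edgeR adjusted p = 0.825), an interaction of -0.62 ± 0.09 (edgeR adjusted p = 0.0605). At 6 h it was lower in GS, with a GS minus WT difference of -0.52 ± 0.06 (edgeR adjusted p = 0.0305), and in intact striatum the difference was 0.10 ± 0.06. Hlf, a relative of Dbp, fell by 0.30 ± 0.06 in GS (edgeR adjusted p = 0.00465), with an interaction of -0.41 ± 0.08. Per2, a core repressor of the clock, had 33.7 and 34.4 CPM in GS 6 h, 62.9 and 93.1 CPM in GS intact, 51.8 and 42.6 CPM in WT 6 h and 60.9 and 67.3 CPM in WT intact striatum. GS 6 h was the lowest group and both intact groups were high and overlapped. Per2 fell by 1.20 ± 0.15 in GS (edgeR adjusted p = 0.000654), and its interaction was -0.76 ± 0.21 (edgeR adjusted p = 0.17). Bhlhe41, a clock repressor, had an interaction of -0.37 ± 0.09. Clock, Per3, Tef and Bhlhe40 rose in both genotypes, by 0.19 to 0.27 in GS and 0.27 to 0.37 in WT, and none of their interactions passed. The labels give no time of day for the collection of tissue, so its part in these values was not tested.

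Endothelial genes, which mark the lining of vessels, lay in the same direction. Of 18 measured endothelial genes, 15 had an interaction below 0, 7 were lower (7.61% of all genes) and none higher at an unadjusted p under 0.05, and the median was -0.38. In GS 10 fell (9.56% of all genes) and none rose, and in WT 5 fell (3.66%) and none rose. The median GS minus WT difference was -0.05 at 6 h and 0.30 in intact striatum. In 8 of 18 genes both GS intact libraries lay above the other 6 (10.7% of all genes). In 6 of 18 both GS 6 h libraries lay below the other 6 (8.78% of all genes). Kdr, the VEGF receptor 2, had 4.3 and 3.55 CPM in GS 6 h, 10.4 and 9.33 CPM in GS intact, 6.31 and 5.95 CPM in WT 6 h and 9.87 and 6.19 CPM in WT intact striatum. GS 6 h was the lowest group, WT 6 h lay between the GS groups, and WT intact overlapped both WT 6 h and GS intact. Kdr fell by 1.33 ± 0.20 in GS (edgeR adjusted p = 0.00147), differed by -0.39 ± 0.19 in WT (edgeR adjusted p = 0.233), and had an interaction of -0.94 ± 0.28 (edgeR adjusted p = 0.184). Cldn5, the tight junction claudin of brain endothelium, had 8.24 and 6.98 CPM in GS 6 h, 11.1 and 13.7 CPM in GS intact, 9.05 and 10.0 CPM in WT 6 h and 9.51 and 7.28 CPM in WT intact striatum. It fell by 0.71 ± 0.15 in GS (edgeR adjusted p = 0.00958), differed by 0.18 ± 0.16 in WT (edgeR adjusted p = 0.507), and had an interaction of -0.89 ± 0.22 (edgeR adjusted p = 0.126). Ly6a and Ly6c1, surface antigens of endothelial cells with similar sequences, had interactions of -0.66 ± 0.14 and -0.54 ± 0.12. Tek and Tie1, the angiopoietin receptors, fell in both genotypes, Tek by 1.58 ± 0.18 in GS (edgeR adjusted p = 0.000373) and 0.93 ± 0.18 in WT (edgeR adjusted p = 0.0104). The median was -0.51 without WT intact replicate 1, -0.19 without WT intact replicate 2, and -0.24 without the libraries high in choroid plexus markers.

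Immediate early and glucocorticoid response genes had a median interaction above 0. Of 35 measured immediate early genes, which neurons and glia switch on within minutes of a stimulus, 24 had an interaction above 0, 9 were higher (5.97% of all genes) and none lower at an unadjusted p under 0.05, and the median was 0.25. In GS 9 rose and 7 fell (10.8% and 9.56% of all genes), and in WT 5 rose and 9 fell (6.05% and 3.66%). Fosb, a subunit of AP-1, had 63.4 and 22.6 CPM in GS 6 h, 9.44 and 11.7 CPM in GS intact, 11.8 and 12.8 CPM in WT 6 h and 11.1 and 14.8 CPM in WT intact striatum. Both GS 6 h libraries were above the others but differed widely from each other. Fosb rose by 2.02 ± 0.36 in GS (edgeR adjusted p = 0.00353) and differed by -0.07 ± 0.36 in WT (edgeR adjusted p = 0.932). Its interaction was 2.09 ± 0.51 (edgeR adjusted p = 0.124). It lay between 1.16 and 2.66 without any 1 library, where 1 group is left with a single library. Nr4a3, an orphan nuclear receptor, had 24.1 and 9.96 CPM in GS 6 h, 7.79 and 13.8 CPM in GS intact, 6.09 and 7.04 CPM in WT 6 h and 13.3 and 14 CPM in WT intact striatum, with 1 GS 6 h library above all others and the other within the range of GS intact, and an interaction of 1.71 ± 0.49 (edgeR adjusted p = 0.17). Sik1, a salt-inducible kinase, had 14.2 and 14.9 CPM in GS 6 h, 12.8 and 14 CPM in GS intact, 10.5 and 12.5 CPM in WT 6 h and 17.6 and 20.2 CPM in WT intact striatum. It differed by 0.12 ± 0.11 in GS (edgeR adjusted p = 0.494), fell by 0.72 ± 0.11 in WT (edgeR adjusted p = 0.00411), and had an interaction of 0.83 ± 0.15 (edgeR adjusted p = 0.0836). Nptx2, a secreted pentraxin of excitatory synapses, rose by 0.83 ± 0.12 in GS (edgeR adjusted p = 0.00148), with an interaction of 0.64 ± 0.18 (edgeR adjusted p = 0.161). The median of the list was 0.13 without GS 6 h replicate 1 and 0.53 without GS intact replicate 2.

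The 13 measured glucocorticoid response genes are mostly genes that the stress hormone corticosterone induces through its nuclear receptor. The list also holds that receptor, Nr3c1. In GS 10 of 13 rose and 1 fell (10.8% and 9.56% of all genes), and in WT 6 rose (6.05% of all genes) and none fell. The gene that fell in GS was Nr3c1, with a difference of -0.22 ± 0.05 (edgeR adjusted p = 0.0163). In 10 of 13 both GS 6 h libraries lay above the other 6 (8.35% of all genes). The median response was 1.06 in GS and 0.47 in WT, and the median interaction 0.23. That median turned to -0.028 without GS intact replicate 1 and to -0.072 without the libraries high in choroid plexus markers, and it was 0.62 without GS intact replicate 2, so the sign of the group difference rests on single libraries. Sgk1, a kinase induced by serum and glucocorticoids, had 207 and 237 CPM in GS 6 h, 105 and 107 CPM in GS intact, 136 and 148 CPM in WT 6 h and 103 and 131 CPM in WT intact striatum. GS 6 h lay above all other libraries, GS intact and WT intact overlapped. Sgk1 rose by 1.06 ± 0.10 in GS (edgeR adjusted p = 0.000156), differed by 0.28 ± 0.10 in WT (edgeR adjusted p = 0.106), and had an interaction of 0.78 ± 0.14 (edgeR adjusted p = 0.0811), between 0.60 and 0.95 without any 1 library. Arrdc2, an arrestin domain gene, had 18.6 and 27.1 CPM in GS 6 h, 8.02 and 10.1 CPM in GS intact, 13 and 13.8 CPM in WT 6 h and 9.5 and 10.4 CPM in WT intact striatum. It rose by 1.33 ± 0.17 in GS (edgeR adjusted p = 0.000606), with an interaction of 0.90 ± 0.24 (edgeR adjusted p = 0.146). Errfi1, an inhibitor of the EGF receptor, rose by 0.49 ± 0.08 in GS (edgeR adjusted p = 0.00166), with an interaction of 0.48 ± 0.11 (edgeR adjusted p = 0.109). Fkbp5, a co-chaperone of the glucocorticoid receptor, rose in both genotypes, by 1.13 ± 0.12 in GS and 0.97 ± 0.12 in WT. Of the 6 annotated starts of Sgk1 in RefSeq (GRCm38.p6), the one with 250 bases at chr10:21993640-21993889 on the plus strand is shown because they hold the letters of a glucocorticoid receptor element, GNACA, 3 bases and TGTNC (in capitals, both strands searched), which occur in 0.387% of all promoter windows.
Sgk1: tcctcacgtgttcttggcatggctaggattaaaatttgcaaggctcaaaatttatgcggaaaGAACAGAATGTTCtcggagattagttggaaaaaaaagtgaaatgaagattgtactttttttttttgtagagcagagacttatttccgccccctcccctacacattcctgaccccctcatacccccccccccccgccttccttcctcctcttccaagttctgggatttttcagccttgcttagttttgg
The match describes these letters, and binding of the receptor there was not measured.

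**Figure D5:**
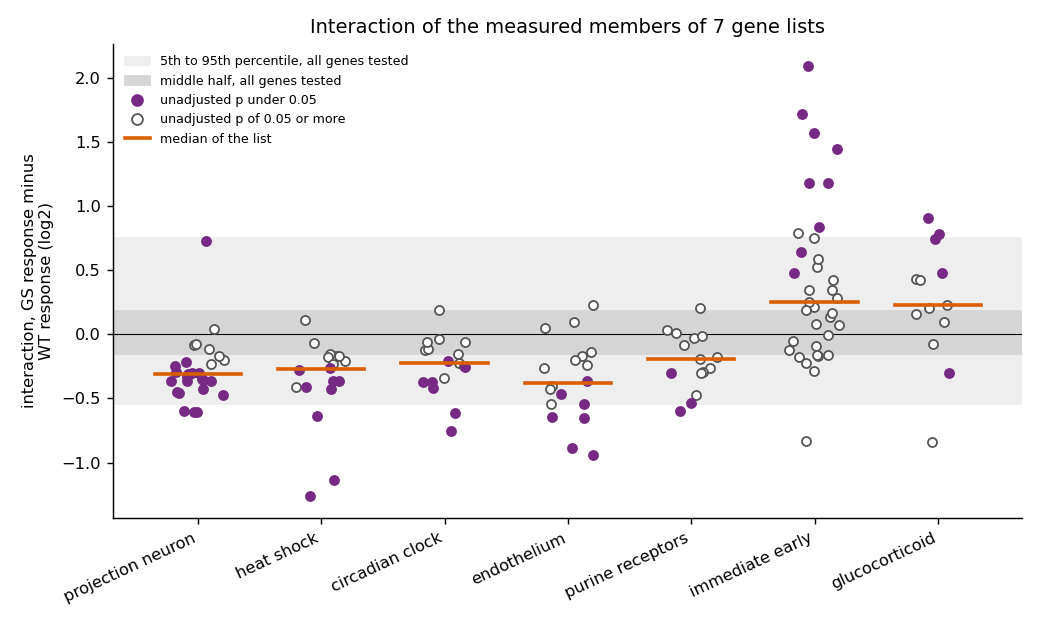
Interaction (GS response minus WT response, log2) of each measured member of 7 gene lists, filled where the unadjusted p is under 0.05, with the median of each list as a bar and the spread of all 18626 genes in grey. The medians run from -0.38 for the endothelium to 0.25 for the immediate early genes, and 25 of 27 projection neuron, 17 of 18 heat shock and 16 of 17 clock members lie below 0.

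Purine receptors, which sense ATP, ADP and adenosine, mostly had an interaction below 0. Of 15 measured purine receptor genes, 12 had an interaction below 0 and 3 were lower at an unadjusted p under 0.05 (7.61% of all genes): Adora2a, described above, and Adora1 and Adora2b, which encode other adenosine receptors. Adora1 had 231 and 224 CPM in GS 6 h, 223 and 237 CPM in GS intact, 239.7 and 257 CPM in WT 6 h and 207 and 201 CPM in WT intact striatum. It differed by -0.02 ± 0.05 in GS (edgeR adjusted p = 0.879), rose by 0.28 ± 0.05 in WT (edgeR adjusted p = 0.0114), and had an interaction of -0.30 ± 0.08 (edgeR adjusted p = 0.146). Adora2b had 6.29 and 7.09 CPM in GS 6 h, 9.27 and 9.67 CPM in GS intact, 8.93 and 8.24 CPM in WT 6 h and 8.99 and 7.81 CPM in WT intact striatum and an interaction of -0.53 ± 0.17 (edgeR adjusted p = 0.21). P2ry12, the ADP receptor of resting microglia, had 21.8 and 25.1 CPM in GS 6 h, 49.2 and 43.8 CPM in GS intact, 33.2 and 27.2 CPM in WT 6 h and 50.1 and 47 CPM in WT intact striatum. It fell by 0.99 ± 0.10 in GS (edgeR adjusted p = 0.000249) and by 0.68 ± 0.10 in WT (edgeR adjusted p = 0.00387), an interaction of -0.31 ± 0.14 (edgeR adjusted p = 0.389). The ATP-gated channel P2rx7 had 10.0 and 9.83 CPM in GS 6 h, 10.3 and 10.5 CPM in GS intact, 10.4 and 10.3 CPM in WT 6 h and 10.3 and 11.2 CPM in WT intact striatum, with GS 6 h a little below the other 6 libraries, and an interaction of -0.01 ± 0.14. Among 16 measured ectonucleotidase and adenosine handling genes the median interaction was -0.02. Nt5e, the ectoenzyme that makes adenosine from AMP, had 41.7 and 42.2 CPM in GS 6 h, 17.3 and 21.3 CPM in GS intact, 24.9 and 29.9 CPM in WT 6 h and 19.4 and 18 CPM in WT intact striatum and an interaction of 0.57 ± 0.15 (edgeR adjusted p = 0.151). It rose in both genotypes, by 1.12 ± 0.11 in GS and 0.55 ± 0.11 in WT. Ada, the enzyme that deaminates adenosine, had 2.13 and 2.49 CPM in GS 6 h, 0.456 and 0.371 CPM in GS intact, 1.14 and 1.47 CPM in WT 6 h and 0.527 and 0.647 CPM in WT intact striatum and an interaction of 1.33 ± 0.40 (edgeR adjusted p = 0.194).

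Cytokine and chemokine genes had a mixed pattern. Only 15 of the 28 listed genes were in the count table, whose lowest count was 1. Genes without reads in some libraries may therefore be missing from this group. Of 15 measured cytokine and chemokine genes, 5 were lower and 1 higher at an unadjusted p under 0.05 (7.61% and 5.97% of all genes). Cxcl12, a chemokine of vessels and meninges, had 8.76 and 8.81 CPM in GS 6 h, 36.2 and 29.2 CPM in GS intact, 16 and 14.2 CPM in WT 6 h and 34.7 and 27.2 CPM in WT intact striatum. Both 6 h groups lay below both intact groups, and GS 6 h below WT 6 h. Cxcl12 fell by 1.90 ± 0.13 in GS (edgeR adjusted p = 5.33e-05) and by 1.03 ± 0.13 in WT (edgeR adjusted p = 0.00197), an interaction of -0.86 ± 0.19 (edgeR adjusted p = 0.0989). Cx3cl1, the neuronal ligand of the microglial receptor Cx3cr1, fell by 0.45 ± 0.05 in GS (edgeR adjusted p = 0.00028), differed by -0.13 ± 0.05 in WT (edgeR adjusted p = 0.128), and had an interaction of -0.33 ± 0.07 (edgeR adjusted p = 0.0984). Il1a and Il1rn, the interleukin 1 alpha and the interleukin 1 receptor antagonist genes, rose in both genotypes, Il1a by 1.61 ± 0.30 in GS and 2.19 ± 0.28 in WT, and Il1rn by 3.18 ± 0.56 in GS and 3.78 ± 0.58 in WT. For the next groups the shares of all genes were 10.8% rising and 9.56% falling in GS, 6.05% rising and 3.66% falling in WT, and 5.97% higher in the interaction at an unadjusted p under 0.05. Of 14 homeostatic microglial genes 13 fell in GS and 13 in WT, with median responses of -0.61 in GS and -0.60 in WT and no member at an unadjusted interaction p under 0.05. Of 21 cell cycle genes 9 rose in GS and 8 in WT, and 1 was higher in the interaction at an unadjusted p under 0.05, a share near that of all genes. Of 29 cytokine and NF-kB signalling genes 16 rose in GS and 8 in WT, none fell in either, and 3 had a higher response in GS at an unadjusted p under 0.05. Of 10 reactive astrocyte genes 3 rose in GS and 5 in WT, and Gfap, the astrocyte intermediate filament, had 118 and 108 CPM in GS 6 h, 30.8 and 27.3 CPM in GS intact, 74 and 89.5 CPM in WT 6 h and 26.8 and 32.2 CPM in WT intact striatum and an interaction of 0.49 ± 0.15 (edgeR adjusted p = 0.202).

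Counts of other gene groups follow, to be read against the shares of all genes. These were 10.8% rising and 9.56% falling in GS, and 6.05% and 3.66% in WT. In the interaction at an unadjusted p under 0.05 they were 5.97% higher and 7.61% lower. Of 21 measured p53 target genes, which follow DNA damage, 7 rose and 1 fell in GS and 5 rose in WT. In the interaction 4 were higher and 1 lower at an unadjusted p under 0.05, and 11 lay above 0 and 10 below. Their median interaction was 0.32, and it lay between -0.04 and 0.29 without any 1 library. Cdkn1a, the p53-induced inhibitor of the cell cycle, had 64.9 and 71.5 CPM in GS 6 h, 11.5 and 13.8 CPM in GS intact, 43.7 and 49.5 CPM in WT 6 h and 11.4 and 12.1 CPM in WT intact striatum, with GS 6 h above WT 6 h and both above the intact groups, and an interaction of 0.44 ± 0.14 (edgeR adjusted p = 0.207). Of 20 transport genes of the blood-brain barrier, 1 rose and 10 fell in GS and 5 fell in WT. Abcb1a, the drug efflux pump P-glycoprotein, had 12.1 and 12.2 CPM in GS 6 h, 24.2 and 20.9 CPM in GS intact, 15 and 13.3 CPM in WT 6 h and 20.7 and 16.5 CPM in WT intact striatum and an interaction of -0.50 ± 0.17 (edgeR adjusted p = 0.238). Of 16 oligodendrocyte and myelin genes 1 rose and 4 fell in GS and 4 fell in WT. In the interaction 5 were higher and none lower at an unadjusted p under 0.05. Their median interaction was 0.13, and it lay between 0.05 and 0.18 without any 1 library.

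Genes around LRRK2 itself had interactions from -0.49 to 0.22, and none passed. Of 21 measured Rab, Rab regulator and LRRK2-related genes, 16 had an interaction below 0, and the median was -0.10. At an unadjusted p under 0.05, 2 were lower (9.52%, near the 7.61% of all genes) and none higher. In GS 3 rose and 2 fell (10.8% and 9.56% of all genes), and in WT 1 rose (6.05% of all genes) and none fell. The direct comparisons of genotypes called 4 genes at 6 h and 22 in intact striatum (0.118%). Of the 22, 17 were higher (0.0913% of all genes) and 5 lower (0.0268%) in GS, and of the 4, 2 were higher (0.0107%) and 2 lower (0.0107%). At 6 h these were Ddit4 and Akap12, higher in GS, and Dbp and Psme4, lower in GS. Akap12, a kinase anchoring protein, had 33.1 and 25.7 CPM in GS 6 h, 15 and 14.4 CPM in GS intact, 15.7 and 16 CPM in WT 6 h and 13.8 and 14.9 CPM in WT intact striatum, so the GS 6 h libraries alone were raised, and its interaction was 0.86 ± 0.16 (edgeR adjusted p = 0.0836). Psme4, an activator of the proteasome, had 32.8 and 32.6 CPM in GS 6 h, 24.7 and 26.7 CPM in GS intact, 57.7 and 58.2 CPM in WT 6 h and 55.4 and 50.02 CPM in WT intact striatum. It was lower in GS at both stages, with GS minus WT differences of -0.83 ± 0.07 at 6 h (edgeR adjusted p = 0.00213) and -1.04 ± 0.07 in intact striatum (edgeR adjusted p = 0.000237), and its interaction was 0.21 ± 0.10 (edgeR adjusted p = 0.365). Akap12 and Psme4 were named after their values were seen, because the count at 6 h was 4.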

How the data were processed

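Whole-number read counts per gene were used as the authors deposited them, with 16 columns matched to the labels. The lowest count in the table was 1, so it held no gene that lacked reads in a library. Genes silent in intact striatum and switched on at 6 h may be missing from all counts given here. Columns named NT were read as WT, the remaining genotype. Per the submitters' processing notes, FastQC 0.11.7 and mm10 were used. Per the labels' protocols, RNA was prepared with RNeasy and TruSeq RNA kits. How reads were aligned, counted and assigned to a strand is not stated in those sources. Genes were kept with edgeR's filterByExpr, which removed 831, and scaling used TMM. The 8 libraries were fitted together by quasi-likelihood, with a coefficient for each of 4 groups (R 4.3.3, edgeR 4.0.16, limma 3.58.1, DESeq2 1.42.0), leaving 4 residual degrees of freedom and a common biological variation of 8.19%. P-values were adjusted by Benjamini and Hochberg over all 18626 genes for each of 6 contrasts, and 0.05 was the threshold. A standard error is the log2 difference divided by the square root of F. Named genes are Lrrk2, the 8 genes of smallest p in each direction of the interaction, genes called with opposite signs, up to 6 genes in each direction of the average response and up to 4 of smallest p in each list, all at a mean of 1 CPM or more except the opposite ones. Gm34982, Gm38604 and other predicted genes are named only. List members beyond these, such as Penk, Pdyn, Fkbp5, Tek and Il1a, were named after their values were seen. The comparison and the gene lists were chosen with earlier results of these data known. RefSeq positions were matched for 19410 gene IDs. A gene that the naming rule picks is not reported here.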

Additional observations from a re-analysis of the deposited data

Results flagged for a closer look

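Rhobtb2 was the 1 gene whose response at 6 h differed between the genotypes by edgeR's test of the difference itself, with an interaction of -0.67 ± 0.07 on the log2 scale (edgeR adjusted p = 0.0298). It was lower at 6 h than in intact striatum in the GS libraries, at 159.6 and 164 against 235 and 245 CPM, and not in the WT libraries, at 201 and 192 against 183 and 184 CPM. It lost this call in 11 of 19 alternative settings, and DESeq2 called 470 genes in the same comparison.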

How the results depend on the processing

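The number of genes called in the interaction was 1, and it was 0 without the low-count filter, 470 with DESeq2, 2 with all 16 libraries fitted, 0 with the cortical marker score and 23 with the choroid plexus marker score as a covariate, 3 and 8 without the library pairs high in cortical and choroid plexus markers, and 0 to 216 without any 1 library. The labels do not say whether replicate numbers pair libraries. Deviations of same-numbered libraries correlated at -0.08 to 0.03 across genes, which cannot exclude a pairing that touches some genes. With the replicate number as a block 0 genes were called in the interaction and 12 between genotypes at 6 h. The WT response gave 769 genes with all 16 libraries, 43 without the cortical pair and 321 to 1996 without any 1 library. The GS response gave 1317 without the choroid plexus pair and 1759 to 3860 without any 1 library. The average response gave 2956 and 3249 without the cortical and choroid plexus pairs. Between genotypes in intact striatum the count was 22, and it was 2 without the filter, 48 with a stricter filter, 526 with DESeq2, 52 with limma-voom, 3 with all 16 libraries, 1 with the cortical covariate, 1 and 97 without the cortical and choroid plexus pairs, and 1 to 254 without any 1 library. Between genotypes at 6 h it was 4, and 2 without the filter, 181 with DESeq2, 1 with all 16 libraries, 2 with the cortical covariate, 13 and 15 without the pairs, and 0 to 10 without any 1 library. The glucocorticoid median of 0.23 became -0.072 without the choroid plexus pair and lay between -0.028 and 0.62 without any 1 library. Rhobtb2 kept its sign in 19 settings and lost its call in 11. Over 65 named interaction values and 1234 recomputed values, none changed sign, 85 now passed and 11 no longer did. Most of these genes were named for the smallest p overall or in their list in these same libraries, so a kept sign is a weak check. The library pairs were left out by a choice made after seeing the data, and the cause of the changes between settings was not tested. With 2 libraries a group and total counts of 53895500 or more in each, the number of libraries limits the precision, and low genes such as Gm38604 carry the widest errors.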

Other observations

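The 3 d and 15 d libraries, which took no part in the comparison, show where the named genes stand over the whole series. Among the genes named for the interaction, Gm34996, Hnrnpdl, Ddit4, Gm34982 and Sgk1 had both GS 6 h libraries above the other 14 libraries. Cobl and Hspa1b had both below them. In Rhobtb2 and Chrm1 both GS intact libraries lay above the other 14, and in Lifr below them. How often this holds over all genes was not computed. The named genes were chosen by their values at 6 h and in intact striatum, so this describes them and supports nothing.

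Ependymal and cilia genes were higher at 6 h, with 10 of 15 measured genes called higher in GS (10.8% of all genes) and 4 in WT (6.05% of all genes) and none lower in either. Their summed level was 145 and 131 CPM in GS 6 h, 108 and 122 CPM in GS intact, 138 and 150.3 CPM in WT 6 h, and 99.9 and 118 CPM in WT intact striatum, so the GS and WT libraries overlapped at each stage.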
